A study of Homo sapiens with 18 samples.

Results

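The genes described here are TOPBP1 and 9 genes that act with it in the ATR-CHK1 branch of the DNA damage checkpoint: ATR, ATRIP, CHEK1, CLSPN, RAD9A, HUS1, RAD17, ETAA1 and TIMELESS. They were chosen by name, with earlier results of these data known. All 10 were found among the 58825 genes counted in 18 libraries of OVCAR-3, an established human cell line of high-grade serous ovarian cancer. The cells received DMSO (the vehicle), 1 µM i-BET858 or 1 µM i-BET151 in stripped medium for 4 or 24 h, with 3 biological replicates in each of the 6 groups. Both compounds are BET inhibitors, which occupy the acetyl-lysine pockets of the BRD proteins that help genes to be transcribed. All groups came from 1 cell line, so the replicates describe repeated cultures of it and not several tumours.

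The pathway answers stretches of single-stranded DNA left by a stalled replication fork or a resected break. Single-stranded DNA coated with RPA draws in the kinase ATR through its partner ATRIP, and the loader subunit RAD17 places the ring-shaped 9-1-1 clamp, which holds RAD9A and HUS1, at the junction. TOPBP1 binds the clamp and switches ATR on, and ETAA1 does so by a separate route through RPA. Claspin (CLSPN) and TIMELESS travel with the fork and help ATR to phosphorylate CHK1, the kinase encoded by CHEK1, which slows origin firing and delays mitosis. Ovarian cancers of this type usually lack functional p53, and checkpoint kinases have been studied in them for that reason.

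The libraries had total counts of 27323969 to 46299994 reads, so that the limit a count of 0 allows, taken as 3 counts, was 0.0653 to 0.109 CPM (counts-per-million). The 6 libraries numbered replicate 3 stood apart: 17817 to 20642 genes had a count in them, against 23674 to 24947 in replicates 1 and 2. The values with replicates 1 and 2 only are therefore given wherever they altered a member's call. All 8 markers of serous ovarian epithelium were detected in every library, among them PAX8, the Müllerian lineage factor, at 387 to 612 CPM. Their summed level moved with treatment, from 8437 to 9929 CPM in DMSO to 11339 to 11936 CPM after i-BET858 at 4 h (0 lower and 2 higher of 8, beside 16.3% and 14.5% of all tested genes). After i-BET151 at 4 h the sum was 9522 to 10113 CPM, which overlaps DMSO. Under it 0 were lower and 0 higher, beside 8.43% and 7.81% of all tested genes. At 24 h the sum was 8494 to 9994 CPM in DMSO, 6621 to 7015 CPM after i-BET858 and 6648 to 7171 CPM after i-BET151. Under each inhibitor 3 were lower and 1 higher, beside 21.3% and 20.5% of all tested genes for i-BET858 and 16.6% and 17.2% for i-BET151. The keratin gene KRT8 made up 56.3 to 62.9% of the sum. Without KRT8 the sum at 4 h was 3613 to 3788 CPM in DMSO, 4237 to 4567 CPM after i-BET858 and 3722 to 3987 CPM after i-BET151. The values at 24 h were 3392 to 3953, 2706 to 2820 and 2908 to 3021 CPM in DMSO, i-BET858 and i-BET151. The part of this shift in the members' results was not tested. Of 9 markers of other cell types, the T cell gene CD3E and the fibroblast gene DCN lay under the limit in all 18 libraries, whereas the fibroblast collagen COL1A1 at 21.1 to 46.7 CPM and the endothelial gene VWF at 0.548 to 4.88 CPM were above it in all 18, and the monocyte gene CD14 in all but 1. The other 4 lay under it in some libraries. In bulk RNA, fewer cells of a kind and less RNA per cell cannot be told apart.

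Of the 10 genes, 9 were expressed at levels that could be tested. ETAA1 (chr2:67397322-67412089) had a single read over all 18 libraries, in DMSO 4 h replicate 2, at 0.0258 CPM, which is under the limit. The annotation release behind the counts is not given in the sources used here, so this value cannot be read as a lack of ETAA1 RNA. In DMSO after 4 h, TOPBP1 was the most abundant of the 9 per kilobase of its canonical transcript, at 30.3 ± 3.06 CPM per kb (SD, n = 3). TIMELESS came next at 21.5 ± 0.746, then ATR at 13.6 ± 1.40 and HUS1 at 9.48 ± 0.280 CPM per kb, and none of these 4 overlapped its neighbour in the order. CHEK1, RAD17, RAD9A, ATRIP and CLSPN followed, from 7.83 down to 5.39 CPM per kb, with overlapping ranges. After 4 h of either inhibitor TIMELESS stood first, at 24.1 ± 2.20 CPM per kb under i-BET858 and 22.9 ± 1.25 under i-BET151, and TOPBP1 second at 13.2 ± 1.57 and 15.7 ± 0.167.

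The stretches just upstream of 3 transcription starts are shown. Of these genes TOPBP1 and ATR had lower RNA, and CLSPN higher RNA, after 4 h of i-BET858. RAD17 also had lower RNA then, but its stretches are not printed, so the 3 do not cover all changed genes. The sequences come from RefSeq on GRCh38.p14, which held 14 promoter entries for 9 of the 10 genes and no entry for HUS1. They are written 5′ to 3′ on the strand of the gene, ending at the base before the start. For TOPBP1 (chr3:133661942-133661971, minus strand) only the last 30 bases are given, since GENCODE 44 has an annotated exon over the whole of its 250-base window. Those of ATR (chr3:142578734-142578983, minus strand) and CLSPN (chr1:35769979-35770228, minus strand) are 250 bases long and held no annotated exon. Capitals mark GGCGNGAA, a core of E2F sites, or CCAAT, read on both strands, so that CCAAT on the other strand appears as ATTGG.
TOPBP1: aggcaagcgcggccgcgcggttGGCGCGAA
ATR: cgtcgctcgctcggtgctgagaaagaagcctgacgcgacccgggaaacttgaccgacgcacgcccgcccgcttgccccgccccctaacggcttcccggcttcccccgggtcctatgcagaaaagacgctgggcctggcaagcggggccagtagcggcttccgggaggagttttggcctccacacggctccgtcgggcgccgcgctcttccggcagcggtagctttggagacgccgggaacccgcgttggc
CLSPN: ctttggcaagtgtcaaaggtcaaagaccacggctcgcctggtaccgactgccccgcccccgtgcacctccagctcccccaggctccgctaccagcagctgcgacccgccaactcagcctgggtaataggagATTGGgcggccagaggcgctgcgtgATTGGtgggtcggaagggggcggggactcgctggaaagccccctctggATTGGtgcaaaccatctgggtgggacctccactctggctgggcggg

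The GGCGNGAA core lay directly before the TOPBP1 start, from 8 to 1 bases upstream, and was found in no other entry of the 9 genes. It occurs in 4.63% of 35116 promoter windows of the same 250 bases. CLSPN held CCAAT at 3 places, and it was in 11 of the 14 entries, which belong to 7 of the 9 genes. The 3 CHEK1 entries overlap and share 1 of these matches, so the 14 are not independent windows, and 32.0% of all windows hold the letters. The E-box CACGTG was found 4 times before RAD9A and once before TIMELESS (6.34% of all windows). TTTGAA, the letters of the cell cycle genes homology region, occurred in 1 of the 3 RAD17 entries (13.3% of all windows). ATR held none of these 4 motifs. The motifs were chosen after the sequences were seen, the matches within an entry do not overlap one another, and a match describes the letters only.

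The first comparison asked what 4 h of i-BET858 did to these transcripts. TOPBP1, ATR, the clamp subunit HUS1 and the loader subunit RAD17 fell, and CLSPN rose. Thus 4 of the 9 tested genes were lower and 1 was higher at an adjusted p under 0.05 (edgeR quasi-likelihood test, Benjamini-Hochberg adjustment over all genes), where 16.3% of 17192 tested genes were lower and 14.5% higher. The median log2 fold change of the 9 was -0.32, beside 0.02 over all tested genes. TOPBP1 alone passed a 2-fold change. The paper already lists TOPBP1 as down-regulated in its own comparison of these data, so this fall was known before the test.

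TOPBP1 (chr3:133598175-133662380) was at 154, 184 and 185 CPM in DMSO and at 73.9, 68.1 and 85.8 CPM after i-BET858. All 3 treated libraries lay under all 3 DMSO libraries. The log2 fold change was -1.20 ± 0.12 (SE; 95% interval -1.47 to -0.92; adjusted p = 3.68e-05 by edgeR), so that 0.436 of the DMSO level remained. It passed in all 18 alternatives, between -1.36 and -1.12.

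HUS1 (chr7:47963288-47979615), a subunit of the clamp, was at 29.3, 27.6 and 28.7 CPM in DMSO and at 17.7, 20.7 and 16.6 CPM after i-BET858. These groups did not overlap, and the log2 fold change was -0.63 ± 0.14 (SE; adjusted p = 0.006 by edgeR). RAD17 (chr5:69369293-69414801), the clamp loader subunit, was at 25.0, 21.5 and 18.6 CPM in DMSO and at 13.1, 14.9 and 10.1 CPM after i-BET858. In both groups replicate 3 was the lowest for RAD17. Its log2 fold change was -0.77 ± 0.24 (SE; adjusted p = 0.0323 by edgeR). The RAD17 call was lost without DMSO replicate 1 or 2 or i-BET858 replicate 1 or 3 (adjusted p = 0.123, 0.0754, 0.0741 and 0.0933), and the exons of RAD17 overlap TAF9 and AK6 on the other strand.

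ATR (chr3:142449007-142578733), the apical kinase, was at 97.9, 117 and 118 CPM in DMSO and at 80.7, 86.7 and 87.1 CPM after i-BET858. The groups did not overlap. Its log2 fold change was -0.38 ± 0.12 (SE; adjusted p = 0.0283 by edgeR). The ATR call was lost without DMSO replicate 2 or 3 (adjusted p = 0.0941 and 0.0882) or i-BET858 replicate 1 or 2 (0.0917 and 0.0552), and with only these groups in the fit (0.0535).

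CLSPN (chr1:35720218-35769978), the adaptor between ATR and CHK1, went the other way: it was at 38.2, 51.0 and 48.4 CPM in DMSO and at 62.0, 77.1 and 72.4 CPM after i-BET858. All treated libraries lay above all DMSO libraries, with a log2 fold change of 0.62 ± 0.14 (SE; adjusted p = 0.00661 by edgeR). It passed in all 18 alternatives. CHEK1 (chr11:125625163-125676255) was at 36.4, 32.4 and 28.2 CPM in DMSO and at 29.4, 27.4 and 20.9 CPM after i-BET858, and the ranges overlapped. Its log2 fold change of -0.32 did not pass (adjusted p = 0.214 by edgeR), but did with the replicate number as a block (adjusted p = 0.0211). CHEK1 was lower in each of the 3 pairs of the same number.

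ATRIP, RAD9A and TIMELESS did not pass at 4 h of i-BET858. ATRIP (chr3:48446710-48467645) had a log2 fold change of 0.30 (95% interval -0.09 to 0.70) and RAD9A (chr11:67317871-67398410) one of 0.26 (interval -0.42 to 0.94). In both genes i-BET858 replicates 1 and 2 were above all DMSO libraries. Replicate 3 lay within the DMSO range for ATRIP, at 26.0 CPM, and under it for RAD9A, at 11.1 CPM. With replicates 1 and 2 only, both passed, at 0.49 (adjusted p = 0.0359 by edgeR) for ATRIP and 0.52 (adjusted p = 0.0341) for RAD9A. Of the ATRIP exon bases 26.7% are shared with TREX1 on the same strand. TIMELESS (chr12:56416363-56449426) had a log2 fold change of 0.17 (95% interval -0.07 to 0.41), although each treated library was above each DMSO library.

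**Figure D1:**
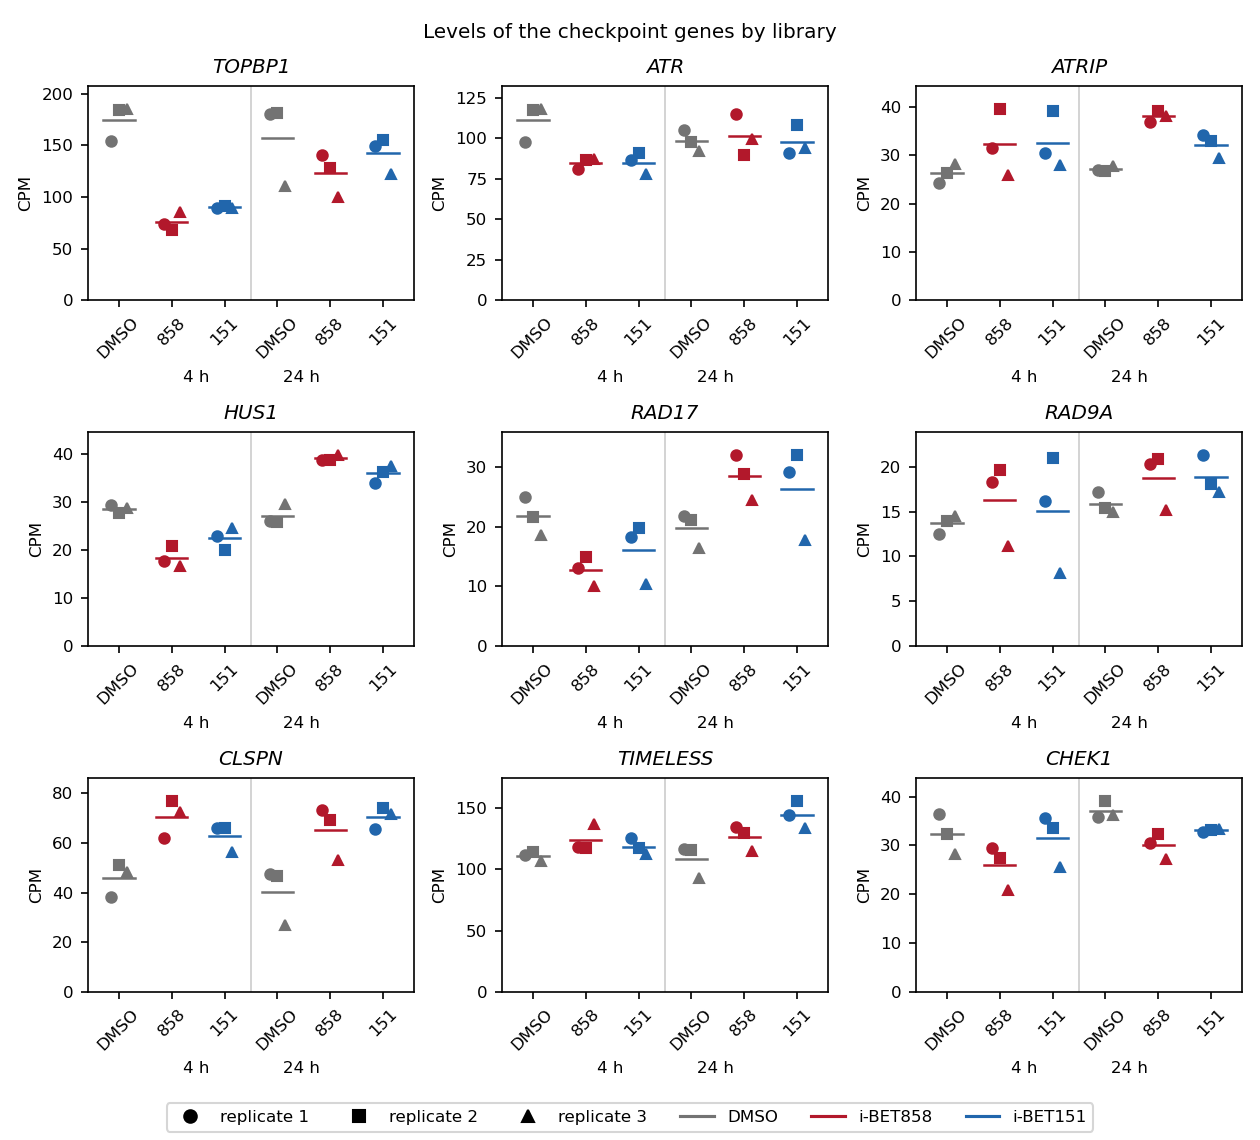
Level of each of the 9 tested genes in CPM (linear axis from 0) in every library. Symbols give the replicate number, colours the treatment, and the horizontal bar the mean of 3 libraries; TOPBP1 in DMSO spans 154 to 185 CPM at 4 h, above the 68.1 to 91.3 CPM of both inhibitors.

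The same question was asked of i-BET151, which is compared with the same DMSO libraries. TOPBP1 and ATR fell, and no gene passed as higher. These 2 of 9 stand beside 8.43% of all tested genes lower and 7.81% higher. TOPBP1 was at 89.8, 91.3 and 89.5 CPM after i-BET151, all under the DMSO values given above. The log2 fold change was -0.96 ± 0.12 (SE; 95% interval -1.23 to -0.68; adjusted p = 0.000437 by edgeR), and TOPBP1 passed in all 18 alternatives. ATR was at 86.5, 90.7 and 77.6 CPM, with a log2 fold change of -0.39 ± 0.12 (SE; adjusted p = 0.0441 by edgeR). The ATR call held in 8 of 18 alternatives only, and was lost in 7 fits that left out 1 library, which were DMSO replicate 2 or 3, i-BET858 replicate 1 or 2, or any i-BET151 replicate (adjusted p = 0.0549 to 0.146). With replicates 1 and 2 only it was -0.29 (adjusted p = 0.117).

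HUS1 was at 23.0, 20.0 and 24.5 CPM after 4 h of i-BET151, under all DMSO libraries, with a log2 fold change of -0.35 (95% interval -0.66 to -0.03; adjusted p = 0.132 by edgeR). It passed in 1 of 18 alternatives, with all 18 libraries in 1 fit (adjusted p = 0.0474). RAD17 was at 18.2, 19.8 and 10.4 CPM, with a log2 fold change of -0.43. It did not pass (adjusted p = 0.266 by edgeR) unless the replicate number was a block (adjusted p = 0.024). CLSPN was at 65.9, 66.1 and 56.4 CPM, above all DMSO libraries, with a log2 fold change of 0.45. Its adjusted p was 0.0554 by edgeR, 0.00556 with the block, 0.0202 by DESeq2 and 0.0245 with replicates 1 and 2 only. CHEK1 at -0.04, ATRIP at 0.31, RAD9A at 0.14 and TIMELESS at 0.09 did not pass.

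After 24 h of i-BET858, ATRIP, CLSPN and HUS1 were higher than in DMSO and CHEK1 was lower, whereas TOPBP1 no longer passed. These 3 higher and 1 lower of 9 stand beside 20.5% of 17157 tested genes higher and 21.3% lower. The median log2 fold change of the 9 was 0.20, beside -0.01 over all tested genes.

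HUS1 was at 25.9, 25.8 and 29.5 CPM in DMSO and at 38.7, 38.7 and 39.8 CPM after 24 h of i-BET858. The treated libraries lay close together and well above DMSO, with a log2 fold change of 0.49 ± 0.10 (SE; adjusted p = 0.00332 by edgeR). ATRIP was at 27.0, 26.7 and 27.7 CPM in DMSO and at 36.9, 39.2 and 38.3 CPM after i-BET858, with a log2 fold change of 0.45 ± 0.10 (SE; adjusted p = 0.00417 by edgeR). HUS1 and ATRIP passed in all 18 alternatives.

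CLSPN was at 47.5, 46.6 and 27.0 CPM in DMSO and at 73.1, 69.2 and 53.1 CPM after 24 h of i-BET858. The groups did not overlap, although DMSO replicate 3 was far below the other DMSO libraries. The log2 fold change was 0.65 ± 0.19 (SE; adjusted p = 0.0193 by edgeR). The call was lost with total library size as the scale (adjusted p = 0.0661) and without i-BET858 replicate 1 or 2 (0.0768 and 0.0619).

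CHEK1 was at 35.8, 39.2 and 36.2 CPM in DMSO and at 30.5, 32.3 and 27.3 CPM after 24 h of i-BET858. All treated libraries lay under all DMSO libraries, with a log2 fold change of -0.34 ± 0.10 (SE; adjusted p = 0.0201 by edgeR). The CHEK1 call was lost without a filter on low counts (adjusted p = 0.141), with all 18 libraries in 1 fit (0.117), and without DMSO replicate 2 (0.0865) or i-BET858 replicate 1 (0.0587) or 3 (0.083). A lncRNA on the other strand overlaps 13.4% of the CHEK1 exon bases.

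TOPBP1 was at 180.1, 181 and 111 CPM in DMSO and at 141, 128 and 100.3 CPM after 24 h of i-BET858. DMSO replicate 3 fell among the treated libraries, while DMSO replicates 1 and 2 were above all of them. The log2 fold change was -0.39 (95% interval -0.81 to 0.03; adjusted p = 0.124 by edgeR). It was -0.56 without DMSO replicate 3 (adjusted p = 0.0118), -0.45 with replicates 1 and 2 only (0.000176), -0.36 without a filter on low counts (0.0252), and -0.37 with the replicate number as a block (0.00378). RAD17 was at 21.8, 21.1 and 16.4 CPM in DMSO and at 32.0, 28.8 and 24.5 CPM after i-BET858. The RAD17 groups did not overlap, but the log2 fold change of 0.49 had an adjusted p of 0.0824 by edgeR. It passed in 5 of 18 alternatives, among them the block (adjusted p = 0.00437) and replicates 1 and 2 only (0.00122). ATR at 0.01 (95% interval -0.24 to 0.26), RAD9A at 0.20 and TIMELESS at 0.18 did not pass. RAD9A did with replicates 1 and 2 only, at 0.30 (adjusted p = 0.037 by edgeR).

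After 24 h of i-BET151, CLSPN, HUS1 and TIMELESS were higher than in DMSO and no gene passed as lower. These 3 of 9 stand beside 17.2% of all tested genes higher and 16.6% lower. CLSPN was at 65.7, 74.0 and 71.5 CPM, above the same DMSO libraries, with a log2 fold change of 0.78 ± 0.19 (SE; adjusted p = 0.01 by edgeR). It passed in all 18 alternatives, and was 0.53 with replicates 1 and 2 only (adjusted p = 0.000224). HUS1 was at 34.0, 36.2 and 37.5 CPM, with a log2 fold change of 0.38 ± 0.10 (SE; adjusted p = 0.0156 by edgeR). The HUS1 call was lost without a filter on low counts (adjusted p = 0.0583) and without DMSO replicate 1 or 2 (0.0662 and 0.0748).

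TIMELESS, which guards the moving fork, was at 117, 116 and 92.9 CPM in DMSO and at 145, 156 and 133 CPM after 24 h of i-BET151. The groups did not overlap, and the log2 fold change was 0.39 ± 0.11 (SE; adjusted p = 0.0199 by edgeR). The call was lost with total library size (adjusted p = 0.0648) and without i-BET151 replicate 1 or 2 (0.0595 and 0.0899). TOPBP1 was at 149, 156 and 122 CPM, with a log2 fold change of -0.17 (95% interval -0.58 to 0.25; adjusted p = 0.547 by edgeR). With replicates 1 and 2 only it was -0.28 (adjusted p = 0.00548).

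RAD17 was at 29.1, 31.9 and 17.7 CPM after 24 h of i-BET151, where replicate 3 lay within the DMSO range. Its log2 fold change of 0.39 did not pass (adjusted p = 0.181 by edgeR) unless the block was used (0.0279), i-BET151 replicate 3 was left out (0.59, with 0.0183) or replicates 1 and 2 only were kept (0.47, with 0.0017). ATRIP at 0.23 (adjusted p = 0.107), CHEK1 at -0.18 (0.199), RAD9A at 0.23 (0.284) and ATR at -0.03 (0.875) did not pass. With replicates 1 and 2 only, ATRIP passed at 0.29 (adjusted p = 0.0127 by edgeR) and CHEK1 at -0.22 (0.0466).

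**Figure D2:**
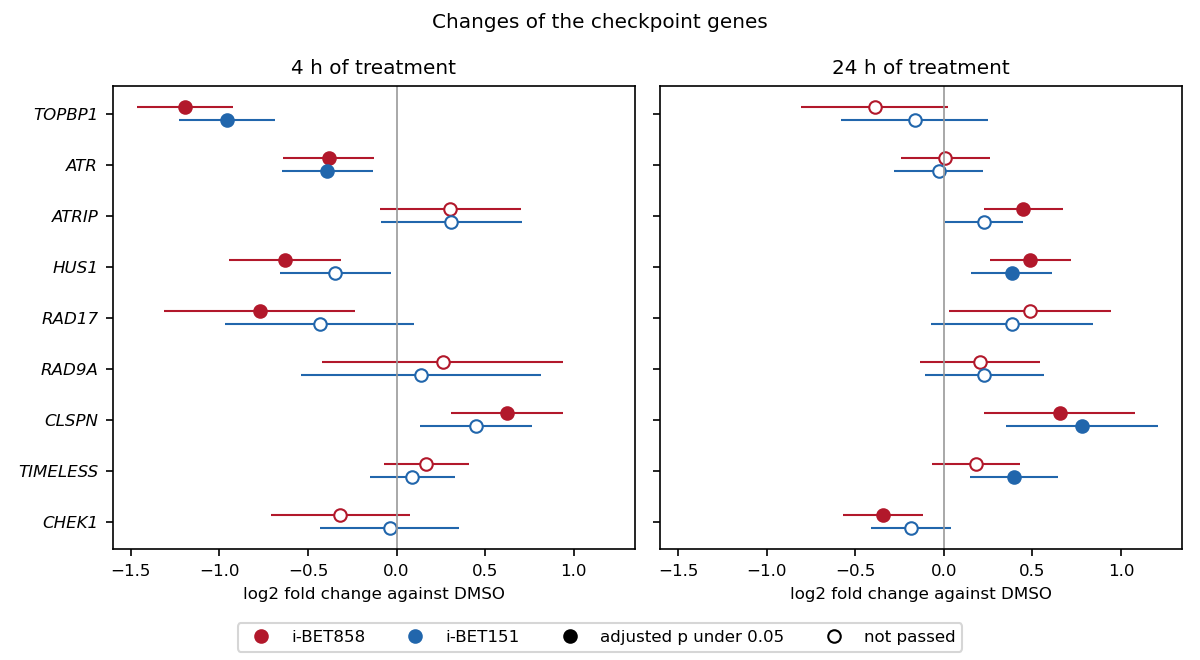
Log2 fold change against DMSO of the 9 tested genes after 4 h (left) and 24 h (right), for i-BET858 (red) and i-BET151 (blue). Bars are 95% intervals of the edgeR fit and filled points passed an adjusted p under 0.05; TOPBP1 reaches -1.20 and -0.96 at 4 h, while at 24 h its points are -0.39 and -0.17 and both are open.

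The design also allowed the effect of each inhibitor to be compared between 24 and 4 h, with a drug-by-time term over all 18 libraries. TOPBP1, HUS1 and RAD17 had a higher log2 fold change against DMSO at 24 h than at 4 h of i-BET858, and TOPBP1 and HUS1 did so with i-BET151. These 3 of 9 stand beside 14.6% of 18154 tested genes with a higher effect and 12.6% with a lower one for i-BET858. The 2 of 9 for i-BET151 stand beside 6.99% and 6.82%. No member passed with a lower effect at 24 h.

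For TOPBP1 the effect of i-BET858 moved by 0.85 ± 0.24 on the log2 scale (SE; adjusted p = 0.0129 by edgeR), from a clear fall toward DMSO. In pairs of the same replicate number, the log2 ratios to DMSO were -1.06, -1.43 and -1.11 at 4 h and -0.35, -0.50 and -0.14 at 24 h, so that all 3 were nearer to 0 at 24 h. The effect of i-BET151 moved by 0.81 ± 0.24 (SE; adjusted p = 0.0309 by edgeR). Here the ratios were -0.78, -1.01 and -1.05 at 4 h and -0.27, -0.22 and 0.14 at 24 h. The i-BET151 call was lost in 8 fits that left out 1 library, which were DMSO 4 h replicate 2 or 3, DMSO 24 h replicate 3, any i-BET151 4 h replicate, or i-BET151 24 h replicate 1 or 2 (adjusted p = 0.0515 to 0.0862), and the change was 0.63 with replicates 1 and 2 only (adjusted p = 0.00445).

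HUS1 moved from under DMSO to above it. Its i-BET858 effect differed by 1.16 ± 0.16 (SE; 95% interval 0.82 to 1.51; adjusted p = 6.22e-05 by edgeR). The ratios in pairs of the same number were -0.73, -0.41 and -0.78 at 4 h and 0.58, 0.58 and 0.43 at 24 h. The i-BET151 effect differed by 0.75 ± 0.16 (SE; adjusted p = 0.00567 by edgeR), although HUS1 at 4 h of i-BET151 did not pass (0.132). For RAD17 the i-BET858 effect differed by 1.30 ± 0.34 (SE; adjusted p = 0.00809 by edgeR). The RAD17 ratios were -0.93, -0.54 and -0.89 at 4 h and 0.55, 0.45 and 0.58 at 24 h. Against DMSO at 24 h of i-BET858, RAD17 did not pass (adjusted p = 0.0824 by edgeR).

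With i-BET151 the RAD17 effect differed by 0.84 between the times (adjusted p = 0.113 by edgeR; 0.00255 with the block; 0.00648 with replicates 1 and 2 only). For ATR the i-BET858 effect differed by 0.44 (adjusted p = 0.0554 by edgeR; 0.0262 with the block) and the i-BET151 effect by 0.38 (0.136). CLSPN was above DMSO at both times, and its effect differed by 0.07 (95% interval -0.47 to 0.61) with i-BET858 and 0.35 (-0.19 to 0.89) with i-BET151. Between 4 and 24 h of DMSO alone, no member passed in either direction with edgeR, nor with DESeq2. No member had an unadjusted p under 0.05, beside 1664 of 18154 tested genes. Over all genes, 0.0386% were lower and 0% higher at 24 h of DMSO with edgeR (7 and 0 genes), and 149 and 55 genes were with DESeq2 and 285 and 90 with the block.

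**Figure D3:**
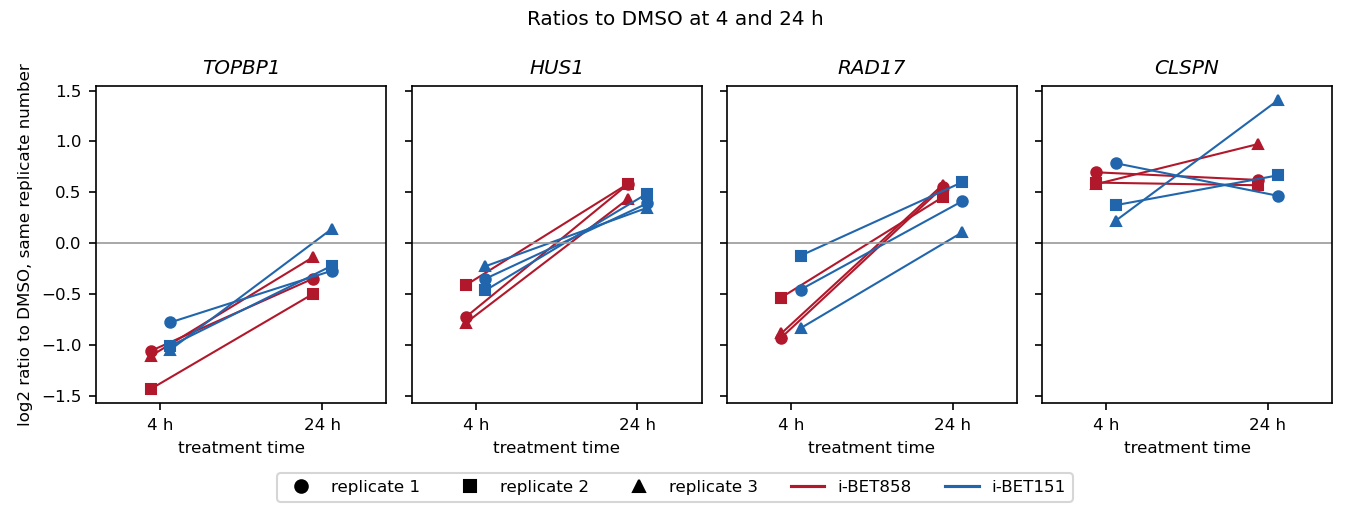
Log2 ratio of the inhibitor library to the DMSO library of the same replicate number at 4 and 24 h for TOPBP1, HUS1, RAD17 and CLSPN. Each line is 1 replicate number of 1 inhibitor, joined for display; HUS1 is below 0 in all 6 lines at 4 h and above 0 in all 6 at 24 h.

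The inhibitors were then compared with each other at the same dose and time, which was 9 tests in each of 2 comparisons. No member differed at 4 or 24 h with edgeR or DESeq2. With edgeR 0.558% of all tested genes were lower and 0.413% higher with i-BET858 than with i-BET151 at 4 h (96 and 71 genes), and 0.117% lower and 0.0933% higher at 24 h (20 and 16 genes). These counts moved with the test and the libraries. DESeq2 called 450 lower and 311 higher at 4 h and 290 and 257 at 24 h. With edgeR none was called at 4 h without i-BET858 replicate 1, 2 or 3 or i-BET151 replicate 2, and 1 lower and 1 higher without i-BET151 replicate 1. At 24 h, leaving out 1 library gave 0 to 53 lower and 1 to 57 higher, the most without DMSO replicate 3. The block gave 902 and 753 at 4 h and 432 and 317 at 24 h, and replicates 1 and 2 only gave 202 and 190 at 4 h and 582 and 679 at 24 h. At an unadjusted p under 0.05 there were 0 members at 4 h and 1 at 24 h, ATRIP, beside 2042 of 17192 and 1953 of 17157 tested genes. TOPBP1 was lower with i-BET858 than with i-BET151 in 9 of 9 pairs of libraries at 4 h, by a log2 difference of -0.24 (95% interval -0.51 to 0.03; adjusted p = 0.493 by edgeR). At 24 h the difference of TOPBP1 was -0.22 (-0.64 to 0.19).

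At 4 h the differences of HUS1 at -0.29 (95% interval -0.60 to 0.03), RAD17 at -0.34 (-0.88 to 0.20) and CHEK1 at -0.28 (-0.67 to 0.11) did not pass. CLSPN at 0.17, RAD9A at 0.12, TIMELESS at 0.08 and ATR at 0.01 had differences above 0, so that 5 of the 9 were negative. At 24 h ATRIP was 0.22 higher with i-BET858 (95% interval 0.00 to 0.44; adjusted p = 0.429 by edgeR) and TIMELESS 0.21 lower (interval of the difference -0.46 to 0.03; adjusted p = 0.541). With total library size as the scale, the share of higher calls over all genes in this comparison moved from 42.5 to 16.6% at 4 h and from 44.4 to 26.8% at 24 h, and with DESeq2 size factors to 76.9% at 24 h. The last share rests on few genes, 3 lower and 10 higher. With total library size, 276 genes were lower and 55 higher at 4 h, and 41 and 15 at 24 h. No member passed with either scale.

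Other genes of the pathway were followed in 5 lists of 46 genes, of which 45 were tested. After 4 h of i-BET858, 14 of the 45 were lower and 2 higher, and after i-BET151 7 were lower and 1 higher. These are 31.1% lower and 4.44% higher of the 45 under i-BET858, beside 16.3% and 14.5% of all tested genes, and 15.6% and 2.22% under i-BET151, beside 8.43% and 7.81%. With the replicate number as a block the counts were 23 and 6 for i-BET858, and 13 and 3 for i-BET151. The block also called more of all tested genes, 23.0% lower and 22.3% higher for i-BET858 and 17.0% and 15.6% for i-BET151. After 24 h the counts were 12 lower and 7 higher under i-BET858 (26.7% and 15.6%, beside 21.3% and 20.5% of all tested genes), and 6 lower and 7 higher under i-BET151 (13.3% and 15.6%, beside 16.6% and 17.2%). The i-BET151 counts at 24 h were 12 and 9 with the block, where 22.6% and 23.2% of all tested genes passed, and 13 and 11 with replicates 1 and 2 only, where 28.1% and 26.0% did. The 24 h shares lay near those of all genes, so nothing about these lists is read from them. The median log2 fold change of the 45 was -0.37 under i-BET858 and -0.16 under i-BET151 at 4 h, and -0.15 and -0.04 at 24 h, while over all tested genes it lay between -0.01 and 0.02.

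Of 10 genes listed as partners of TOPBP1 in replication and repair, 6 were lower and 1 higher after 4 h of i-BET858, where 16.3% of all tested genes were lower and 14.5% higher. MTBP, which works with TICRR in origin firing, had a log2 fold change of -1.34 ± 0.21 (SE; adjusted p = 0.000525 by edgeR), from 16.8 ± 0.722 to 6.65 ± 1.70 CPM (SD, n = 3). TP53BP1, a scaffold at double-strand breaks, had one of -1.10 ± 0.15 (adjusted p = 0.000199), and NBN, of the MRE11 complex, one of -0.91 ± 0.12 (0.000146). BLM, a helicase, followed at -0.80 ± 0.21 (0.0124). With i-BET151 at 4 h, TP53BP1 at -0.99, MTBP at -0.68 and NBN at -0.40 passed and none passed as higher. These 3 of 10 stand beside 8.43% of all tested genes lower and 7.81% higher. The MTBP and NBN calls were lost without DMSO replicate 1 or 2 or any i-BET151 replicate (adjusted p = 0.0526 to 0.144), the MTBP call also without DMSO replicate 3 (0.0837) or i-BET858 replicate 1 (0.0544), and the NBN call without a filter on low counts (0.0833). At 24 h of i-BET858 3 of the 10 were lower and 2 higher, beside 21.3% and 20.5% of all tested genes. Nothing about the list is read from these counts. Among the lower were MTBP at -0.86 and NBN at -0.70, while TICRR at 0.78 and MDC1 at 0.42 were higher. The MDC1 call was lost without DMSO replicate 2 or 3 (adjusted p = 0.0774 and 0.0711) or i-BET858 replicate 1 or 3 (0.0852 and 0.0738), with total library size (0.0864) and with all 18 libraries in 1 fit (0.108). At 24 h of i-BET151 1 of the 10 was lower, MTBP at -0.62, and 2 higher, TICRR at 0.73 and MDC1 at 0.53. Of all tested genes 16.6% were lower and 17.2% higher there. The TP53BP1 effect was higher at 24 h than at 4 h, by 0.84 (adjusted p = 0.022 by edgeR) with i-BET858 and 0.98 (0.0175) with i-BET151. Both calls were lost without DMSO 4 h replicate 2 (adjusted p = 0.0647 and 0.0522), the first also without i-BET858 replicate 2 at 4 h (0.0501), i-BET858 replicate 1 at 24 h (0.0804) or DMSO replicate 3 at 24 h (0.0605), and the second without i-BET151 replicate 2 at 24 h (0.057).

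Among 8 genes of fork protection and mediators, 5 were lower and none higher after 4 h of i-BET858, beside the same 16.3% and 14.5% of all tested genes. TIPIN, the partner of TIMELESS, had a log2 fold change of -1.27 ± 0.18 (SE; adjusted p = 0.00036 by edgeR), from 19.0 ± 2.93 to 7.85 ± 1.01 CPM (SD, n = 3). TIMELESS itself did not pass in that comparison. With i-BET151 at 4 h, 2 of the 8 were lower and 0 higher, beside 8.43% and 7.81% of all tested genes. TIPIN at -0.76 (adjusted p = 0.0158 by edgeR) and SMARCAL1 at -0.62 (0.0177) passed. These calls held in 16 and 15 of 18 alternatives. At 24 h 4 of the 8 were lower and 1 higher under i-BET858, beside 21.3% and 20.5% of all tested genes. Under i-BET151 2 were lower and 1 higher, beside 16.6% and 17.2%. TIPIN was still lower at 24 h, by -1.30 after i-BET858 and -0.72 after i-BET151. So was SMARCAL1, a fork-remodelling enzyme, at -1.03 and -0.85. FANCD2 was lower at 24 h of i-BET858, at -0.65. FANCM, a translocase at stalled forks, had a log2 fold change of -1.31 at 4 h and 0.78 at 24 h of i-BET858, and its effect differed by 2.14 ± 0.43 (SE; adjusted p = 0.0013 by edgeR). Its call at 4 h was lost without DMSO replicate 2 (adjusted p = 0.0546) or i-BET858 replicate 1 (0.0529). FANCM was also higher at 24 h of i-BET151, at 0.84 ± 0.16 (SE; adjusted p = 0.00271 by edgeR).

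In the list of the clamp, its loaders and RPA, 1 of 10 tested genes was lower and 0 higher after 4 h of i-BET858, beside 16.3% and 14.5% of all tested genes. Nothing about this list is read from that count. The gene was the loader subunit RFC3, at -0.77 ± 0.13 (SE; adjusted p = 0.000981 by edgeR). With i-BET151 at 4 h RFC3 was again the 1 lower gene and 0 were higher, beside 8.43% and 7.81% of all tested genes. Its log2 fold change there was -0.60 (adjusted p = 0.00942 by edgeR). Nothing about the list is read from that count either. At 24 h of i-BET858 RFC3 at -0.40 was lower and RFC5 at 0.33 higher, the latter not without DMSO replicate 2 (adjusted p = 0.0559) nor with total library size (0.0635). Of 6 parallel kinases and kinase maturation factors, TTI1 alone passed at 4 h of i-BET858, at -1.46 ± 0.13 (SE; adjusted p = 1.58e-05 by edgeR). With i-BET151 at 4 h TTI1 was again the only 1 to pass, at -0.59 ± 0.13 (SE; adjusted p = 0.0105 by edgeR). Of all tested genes 16.3% were lower and 14.5% higher for i-BET858, and 8.43% and 7.81% for i-BET151. Nothing about this list is read from 1 of 6. TTI1 belongs to the complex that matures ATR and related kinases, and its level was 82.3 ± 11.8 CPM in DMSO, 29.9 ± 1.95 after i-BET858 and 54.9 ± 1.83 after i-BET151 (SD, n = 3). TTI1 was the 1 gene of the 45 that differed between the inhibitors at 4 h, by -0.87 ± 0.13 (SE; adjusted p = 0.0237 by edgeR). Of all tested genes, 0.558% were lower and 0.413% higher in this comparison. The TTI1 call held in 12 of 18 alternatives and was lost without i-BET858 replicate 1, 2 or 3 (adjusted p = 0.0765, 0.0873 and 0.0553), without i-BET151 replicate 1 or 2 (0.0925 and 0.128) and with only the 2 groups in the fit (0.0855). Under the block 5 of the 45 were lower and 0 higher with i-BET858, beside 5.25% and 4.38% of all tested genes. At 24 h TTI1 did not pass with either inhibitor. CHEK2, which encodes the checkpoint kinase CHK2 of the parallel ATM branch, was lower at 24 h of i-BET858, at -0.70 ± 0.20 (SE; adjusted p = 0.0139 by edgeR), but not without i-BET858 replicate 3 (0.0548). Its effect differed between the times by -0.99 (adjusted p = 0.0281 by edgeR), a call lost on leaving out any 1 of 6 libraries (0.0555 to 0.0782): DMSO replicate 3 or i-BET858 replicate 1 at 4 h, and DMSO replicate 1 or 2 or i-BET858 replicate 1 or 3 at 24 h. At 24 h 0 of the 45 genes differed between the inhibitors with edgeR, beside 0.117% of all tested genes lower and 0.0933% higher. An unadjusted p under 0.05 was reached by 5 of the 45, beside 1953 of 17157 tested genes. Under the block 2 were lower, beside 2.52% of all tested genes, and with replicates 1 and 2 only 3 were lower, beside 3.36%.

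Of 11 targets of CHK1 and genes of checkpoint recovery, 1 was lower and 1 higher at 4 h of i-BET858 and 3 lower and 3 higher at 24 h, beside 16.3% and 14.5% of all tested genes at 4 h and 21.3% and 20.5% at 24 h. PPM1D was higher in all 4 comparisons with DMSO. PPM1D encodes a phosphatase that turns the checkpoint off, and its log2 fold change was 0.90 and 0.81 at 4 h and 0.92 and 0.85 at 24 h for i-BET858 and i-BET151. PLK1, the mitotic kinase that helps cells to leave the checkpoint, was lower at 4 h of i-BET858, at -0.54 ± 0.13 (SE; adjusted p = 0.00846 by edgeR). At 24 h the phosphatase CDC25B was higher, at 0.56 and 0.73, as was BTRC, a ubiquitin ligase subunit, at 0.51 and 0.42, and the inhibitory kinase PKMYT1 lower, at -0.84 and -0.70, after i-BET858 and i-BET151. The BTRC call under i-BET151 was lost without i-BET151 replicate 2 (adjusted p = 0.0521).

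**Figure D4:**
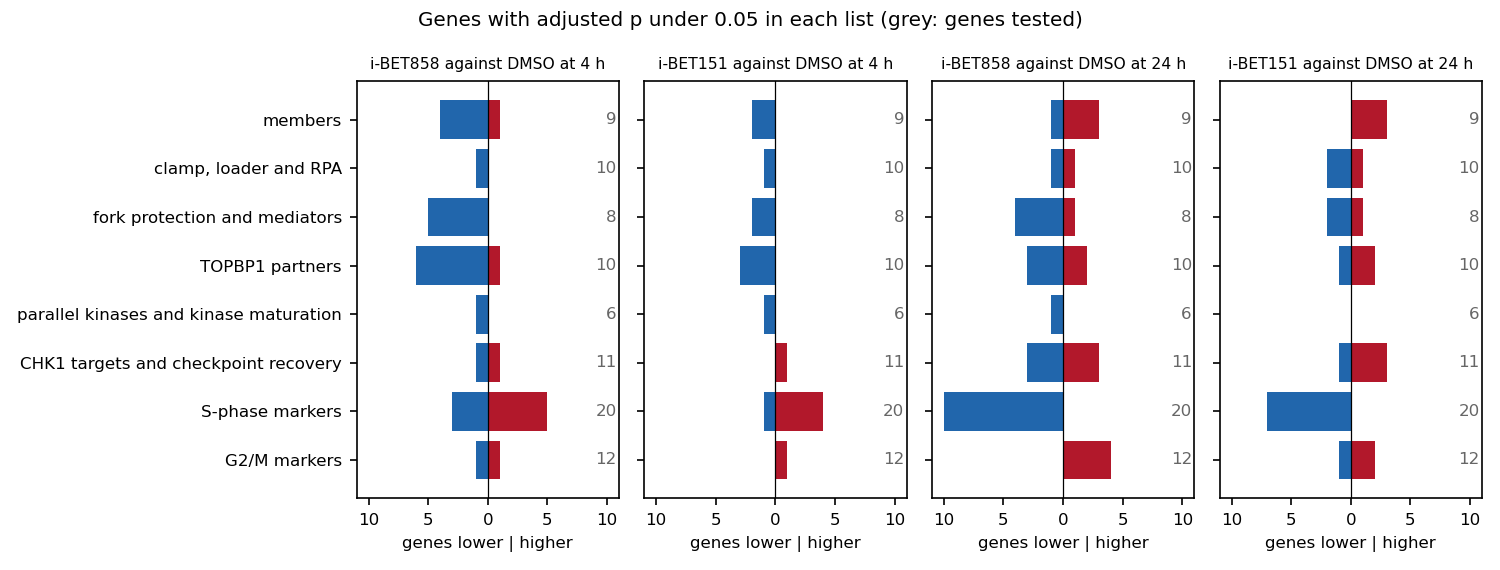
Number of genes with an adjusted p under 0.05 that were lower (blue, to the left) or higher (red, to the right) against DMSO, by list and comparison. Grey numbers give the genes tested; members and TOPBP1 partners are mostly to the left at 4 h of i-BET858 (4 and 6 lower), and S-phase markers are to the left at 24 h (10 and 7 lower).

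Checkpoint genes are known to vary over the cell cycle, so markers of its phases are given beside them. Of 20 S-phase markers, 3 were lower and 5 higher after 4 h of i-BET858, beside 16.3% and 14.5% of all tested genes. The 5 were PCNA, CCNE1, CCNE2, CDC6 and SLBP, named here after their values were seen. At 24 h 10 were lower and 0 higher with i-BET858 and 7 lower and 0 higher with i-BET151 (edgeR). Of all tested genes, 21.3% and 16.6% were lower and 20.5% and 17.2% higher in these comparisons. An unadjusted p under 0.05 was reached by 12 and 10 of the 20, beside 8406 and 7449 of 17157 tested genes. With the block 1 and 0 of the 20 were higher, beside 25.7% and 23.2% of all tested genes. With replicates 1 and 2 only, 2 and 3 were higher, beside 29.8% and 26.0%. Of 12 G2/M markers, 1 was lower and 1 higher at 4 h of i-BET858, and 0 lower and 4 higher at 24 h (edgeR; 5 at an unadjusted p under 0.05, 1 lower with the block), where 20.5% of all tested genes were higher. At 24 h of i-BET151 1 was lower and 2 higher, beside 16.6% and 17.2% of all tested genes. The summed level of the G2/M markers was 1604 to 1961 CPM in DMSO at 24 h and 2310 to 2528 CPM after i-BET858 and 2035 to 2341 CPM after i-BET151, both without overlap with DMSO, and the S-phase sum was 2679 to 2881 CPM in DMSO, 2168 to 2398 CPM after i-BET858 and 2368 to 2505 CPM after i-BET151. The part of these shifts in the changes of the checkpoint genes was not tested.

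Across the 18 libraries, the log2 CPM of TOPBP1 had a Pearson correlation of 0.79 with ATR, 0.62 with RAD17, 0.54 with HUS1, 0.50 with CHEK1, 0.06 with RAD9A, 0.05 with TIMELESS, -0.34 with CLSPN and -0.39 with ATRIP. CLSPN and TIMELESS correlated at 0.80, and HUS1 and RAD17 at 0.76. These values describe 18 libraries that share 6 groups and their replicate numbers. Among 9757 well expressed genes outside the 10, the pattern of TOPBP1 was most like those of UBE2G2 (r = 0.957), MMS22L (0.949), TP53BP1 (0.947), GRK3 (0.946) and ARFGEF1 (0.946). MMS22L, a factor of fork repair, had a log2 fold change of -1.68 after 4 h of i-BET858. CHEK1 was most like ERAL1 (r = 0.900), METTL2A (0.896), GMNN (0.894), BET1 (0.886) and DCAF17 (0.885), so that its closest patterns were looser than those of TOPBP1.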

How the data were processed

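RNA was extracted after 4 or 24 h and poly-A libraries were sequenced as paired-end reads of 150 bases. Per the paper's methods, the authors checked reads with FastQC, aligned them to GRCh38/hg38 with STAR and counted reads per gene with its GeneCounts mode. STAR and DESeq2 are also named in the submitters' processing notes. The deposited values are raw counts, 1 table per time point, whose columns give treatment and replicate (the time was read from the table's name; 0 columns were unused). The annotation release and strand column are not given in the sources used here, and a read that overlaps 2 genes is not counted by STAR. Of 58825 genes, 58472 matched GENCODE 44, which gave symbols, positions and canonical lengths.

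Counts were tested with edgeR 4.0.16 in R 4.3.3 by its quasi-likelihood test (TMM, genes kept by filterByExpr, Benjamini-Hochberg adjustment over all genes, threshold 0.05). The 9 libraries of a time point shared a fit, and effects were compared between times in a fit of all 18. CPM used TMM over the 18 libraries, and correlations log2 CPM with a prior count of 2. SEs are the log2 fold change over the square root of F, and floors of 3 counts cover counting error only. Between replicates, counts differed by 4.47 to 72.6 times counting variance (chi-square per degree of freedom, 18 pairs). After group means were removed, libraries of the same replicate number correlated at 0.125 to 0.344 at 4 h and 0.145 to 0.330 at 24 h (others -0.311 to 0.285), so the numbers were taken to pair the libraries and blocked values are given where they change a call. The labels do not say what a number stands for.

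DESeq2 1.42.0, other scales, filters, fold thresholds, subsets of libraries and each library left out in turn were alternatives. All 10 members were named, and of each list some of the up to 4 genes per comparison with the largest change among those that passed at an average log2 CPM of at least 1. For TOPBP1 and CHEK1 the 5 most correlated genes were named. The members and lists were chosen with earlier results of these data known. The tests were run on simulated data first.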

Additional observations from a re-analysis of the deposited data

Results flagged for a closer look

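5 results were picked out because the effect of an inhibitor differed between 4 and 24 h by a drug-by-time term (edgeR, adjusted over all genes). With i-BET858 the difference was 0.85 on the log2 scale for TOPBP1, 1.16 for HUS1 and 1.30 for RAD17. With i-BET151 it was 0.81 for TOPBP1 and 0.75 for HUS1. In each case the value at 24 h was the higher, and in pairs of the same replicate number all 3 ratios to DMSO were higher at 24 h than at 4 h. Both inhibitors share the DMSO libraries, so these are not independent. DMSO 24 h replicate 3, where TOPBP1 was at 111 CPM against 180.1 and 181 in the other DMSO libraries, enters both TOPBP1 values.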

How the results depend on the processing

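The 19 single-gene calls were recomputed in 377 combinations of call and alternative, and passed in 336 and not in 41; the 62 values without a call gained one in 33 of 1270, and none that passed changed sign. Counts of members that passed moved as follows; the causes were not tested. With a 2-fold threshold, counts at 4 h were 1 lower and 0 higher (i-BET858) and 0 lower (i-BET151), at 24 h 0 lower and 0 higher (i-BET858) and 0 higher (i-BET151), and 0 for the change of the i-BET151 effect. With 1.5-fold, 1 was lower at 4 h of i-BET151, 0 lower and 1 higher at 24 h of i-BET858, and 1 higher at 24 h of i-BET151. With replicates 1 and 2 only, 3 were higher at 4 h of i-BET858, 1 lower and 1 higher at 4 h of i-BET151, 2 lower and 5 higher at 24 h of i-BET858, and 2 lower and 5 higher at 24 h of i-BET151. That setting also called more of all tested genes. At 4 h it called 21.5% lower and 20.3% higher for i-BET858 and 13.5% and 12.4% for i-BET151. The shares at 24 h were 31.0% and 29.8% for i-BET858 and 28.1% and 26.0% for i-BET151. At 4 h of i-BET151, 1 was lower without a filter or with only the 2 groups compared, and 1 higher with DESeq2 or at least 10 counts in every library. With all 18 libraries in 1 fit, 0 were lower at 24 h of i-BET858.

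With the replicate number as a block, 5 members were lower at 4 h of i-BET858, 3 lower and 1 higher at 4 h of i-BET151, 2 lower and 4 higher at 24 h of i-BET858, 4 higher at 24 h of i-BET151, and 4 and 3 higher for the changes of the i-BET858 and i-BET151 effects; beyond the calls named in the report, pairing changed none. Over all genes the block raised the calls at 4 h of i-BET151 from 1449 lower and 1342 higher to 2931 and 2685. Between the inhibitors at 4 h it raised them from 96 and 71 to 902 and 753. Under i-BET858, the blocked share of all tested genes was 23.0% lower, 22.3% higher at 4 h, then 26.3% lower, 25.7% higher at 24 h. Under i-BET151 this share was 17.0% lower, 15.6% higher at 4 h, then 22.6% lower, 23.2% higher at 24 h. For the change of the i-BET858 effect, the block called 17.8% of tested genes lower, 20.6% higher. The i-BET151 change had 12.0% lower, 13.2% higher. Leaving out 1 library in turn gave 2 to 4 lower at 4 h of i-BET858, 1 to 2 lower and 0 to 1 higher at 4 h of i-BET151, 0 to 2 lower at 24 h of i-BET858, and 1 to 3 higher for the change of the i-BET151 effect.

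Total library size moved the median of all genes by -0.16 at 4 h of i-BET858, the share of higher calls there from 47.1 to 32.0%, and that between the DMSO times from 0 to 20.0% (4 lower and 1 higher genes). List counts under the block and without replicate 3, and the alternatives of single list genes, were added after seeing the data.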
